A study of Arabidopsis thaliana with 12 samples.

Results

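The 45 genes described here gave some of the brightest named signals of wild-type Arabidopsis thaliana on an expression array. They were also chosen for a small difference, after quantile normalization, between wild type and the stn7 stn8 double mutant. Total RNA of 12 samples was measured, 6 titled WT (ecotype columbia 0) and 6 titled stn7stn8, with 1 intensity per row of the array. STN7 and STN8 are thylakoid protein kinases, known to act on antenna proteins and on photosystem II core subunits respectively. No row is named here for either kinase, so the genotype was not checked. The grouping rests on the titles, since the source field of every sample names wild type. The labels give no allele, organ, age or light regime, and no harvest or array batch. They do not say whether samples of a group came from separate plants, so any spread between them may be technical. The arrays titled stn7stn8 4 and 5 were duplicates, differing by at most 4.0e-10 in any row. They counted as a single array, which left 6 wild-type and 5 distinct mutant arrays. The deposited intensities summed to between 3586 and 3682 per array, and 145 to 192 rows per array were at 0. Wild-type replicates 5 and 6 stood apart from replicates 1 to 4 in 51.9% of rows, where both lay outside the range of the other 4, so the choice of members is also given without them.

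The genes were chosen by brightness in wild type and by their difference between the groups, so both quantities are descriptions here and neither is tested. Of 3439 rows, 3250 had 4 or more wild-type values above 0. The brightest 15% of these were 488 rows, with a wild-type mean of 0.22 or more on the log2 scale after quantile normalization. The annotation of the array named a single gene for 73 of the 488, several genes for 118 and none for 297. In 48 of the 73 the mutant mean lay within 0.5 of the wild-type mean. In 9 it lay further above and in 16 further below. PSBW, LHB1B2 and AT1G74470 were left out by name from the 48, which gave 45 rows for 45 genes, each with a value in all 11 distinct arrays. PSAN, the other gene to be left out by name, was outside the window already. The 45 genes are therefore a small part of the bright end of the array. The brightness of a row depends on its probe and labelling as well as on its transcript, so a rank here orders rows by signal and does not show that 1 gene had more transcripts than another. Transcripts of near-identical gene copies may also bind the same probe.

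**Figure D1:**
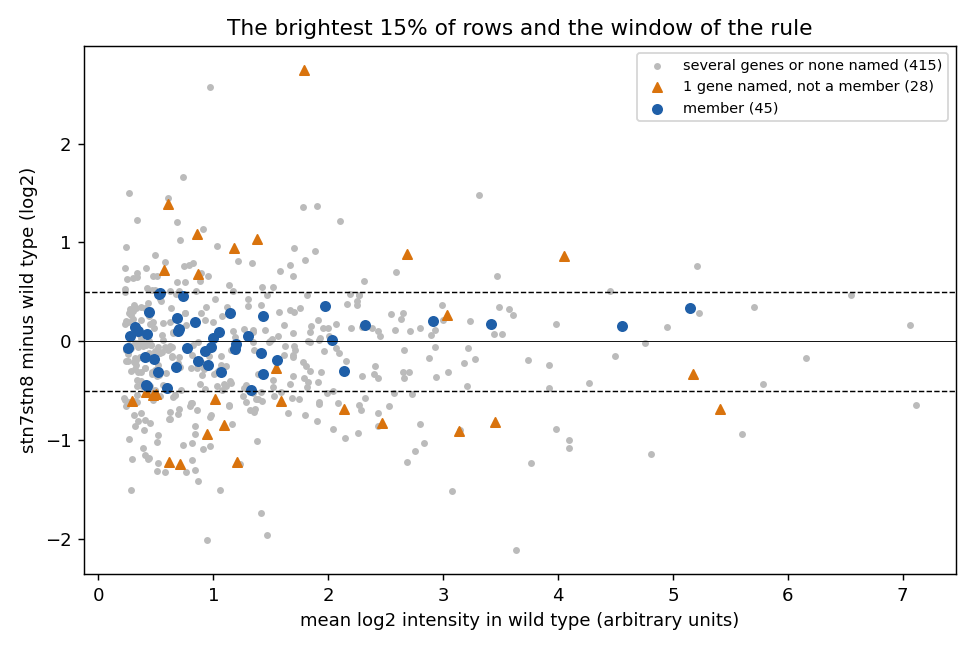
Mean log2 intensity in wild type (horizontal) against mutant minus wild type on the log2 scale (vertical) for the 488 brightest rows. Dashed lines mark the window from -0.5 to 0.5. The 45 members lie inside it by construction, and the 28 other rows with 1 named gene are those outside it or left out by name.

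In green plant cells most proteins of the chloroplast are encoded in the nucleus, made in the cytosol and imported. The transcripts of photosystem subunits, antenna proteins and Calvin cycle enzymes are known to be among the most abundant in leaves. Other nuclear genes serve organelle RNA processing, in which pentatricopeptide repeat proteins bind transcripts of chloroplasts and mitochondria to edit, splice or stabilise them.

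No member belonged to any of 12 lists of photosynthesis, pigment, plastid ribosome, redox and related genes. The lists held 184 genes, of which 18 had a row with 1 gene name and 17 had enough wild-type values. Of these 17, 7 were in the brightest 15%, at wild-type percentiles of brightness from 87.4 for PRK to 99.7 for PSBW. They were PSBW, LHB1B2, PSAN, AT1G74470, PSB27, PSBY and PRK. All 7 were left out by name or lay outside the window. The absence of listed genes among the 45 thus follows from the choice of members and from which rows carry a single gene name. The lists did not hold every related gene. Members outside them include AT3G47650, a chaperone of Rubisco assembly, and AT5G63290, which resembles a coproporphyrinogen oxidase.

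The annotation gave only a locus code for 40 members and a symbol for CUTA, CYN, CML30, chr31 and OTP70. The families named below are background knowledge of these loci, and 10 members are left without a role. By these families 9 members were placed under metabolism and transport, among them CUTA and AT4G25290 of the DNA photolyase family. Another 6 were RNA-binding or organelle gene expression proteins. A further 6 served protein folding or ubiquitin transfer, and 6 signalling or defence. The nucleus accounted for 4 and other families for 4. These classes were formed with the values known.

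The brightest member was AT2G27290, which is given no role here. Its normalized log2 intensity in wild-type replicates 1 to 6 was 5.12, 4.97, 5.43, 5.43, 4.97 and 4.98. In mutant replicates 1, 2, 3, 4 and 6 it was 5.31, 5.32, 5.59, 5.60 and 5.60. The groups overlapped, and in every array the row ranked between 7 and 13 of the 3247 to 3292 rows with a signal. On the deposited linear scale the wild-type mean was 43.6 ± 4.46 (SD, n = 6). The mutant mean on that scale was 36.8 ± 4.51 (SD, n = 5), lower where the normalized mean was higher.

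AT4G17070, of the peptidyl-prolyl isomerase family of protein folding, had the second highest mean of the 45 and the largest spread. Wild-type replicates 1 to 6 gave 5.43, 5.21, 4.85, 4.57, 3.65 and 3.65, a mean of 4.56 ± 0.77 (log2, SD, n = 6). The mutant arrays gave 4.67, 4.49, 4.98, 5.05 and 4.40, all inside the wild-type range. Its rank ran from 8 in wild-type replicate 1 to 29 in replicates 5 and 6.

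AT4G19900, of a glycosyltransferase family, lay between 3.12 and 3.65 in wild type, with a median of 3.49. The mutant values were 3.42, 3.36, 3.65, 3.78 and 3.77, which overlapped the wild-type range. AT1G62250, without a role here, lay between 2.80 and 3.05 in wild type, with a median of 2.88. The mutant values were 3.19, 3.29, 3.09, 2.97 and 3.03, and 3 of them were above every wild-type array. CUTA is a homologue of the bacterial CutA protein, which is linked to copper tolerance in Escherichia coli. Its wild-type values ran from 2.19 to 2.41 with a median of 2.33, and the mutant values were 2.55, 2.47, 2.49, 2.37 and 2.54. It ranked between 74 and 100 in all 11 arrays.

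AT1G13990, without a role here, had wild-type values from 1.96 to 2.32 with a median of 2.17. All mutant arrays were below them, at 1.90, 1.92, 1.85, 1.78 and 1.76. In AT4G39690, the plant MIC60 of the mitochondrial inner membrane, the groups overlapped. Its wild-type values ran from 1.93 to 2.14 with a median of 2.03, and the mutant values of 2.1, 2.11, 2.17, 1.92 and 1.92 covered the same range. Its difference was 0.014 on the log2 scale and its wild-type SD 0.072.

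AT3G26630, a pentatricopeptide repeat protein, gave 1.86 to 2.08 in wild type with a median of 1.96. The mutant arrays gave 2.31, 2.06, 2.58, 2.41 and 2.28, and 4 of 5 were above every wild-type array. AT3G09080, a WD40 repeat protein, gave 1.32 to 1.77 with a median of 1.54 in wild type, and 1.33, 1.44, 1.49, 1.19 and 1.35 in the mutant. AT2G37510, with an RNA recognition motif, gave 1.87, 1.90, 1.77 and 1.70 in wild-type replicates 1 to 4 and 0.64 and 0.72 in replicates 5 and 6. Its mutant arrays, at 1.43, 1.53, 1.52, 1.86 and 2.12, were all above wild-type replicates 5 and 6, and 3 of them were below replicates 1 to 4.

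**Figure D2:**
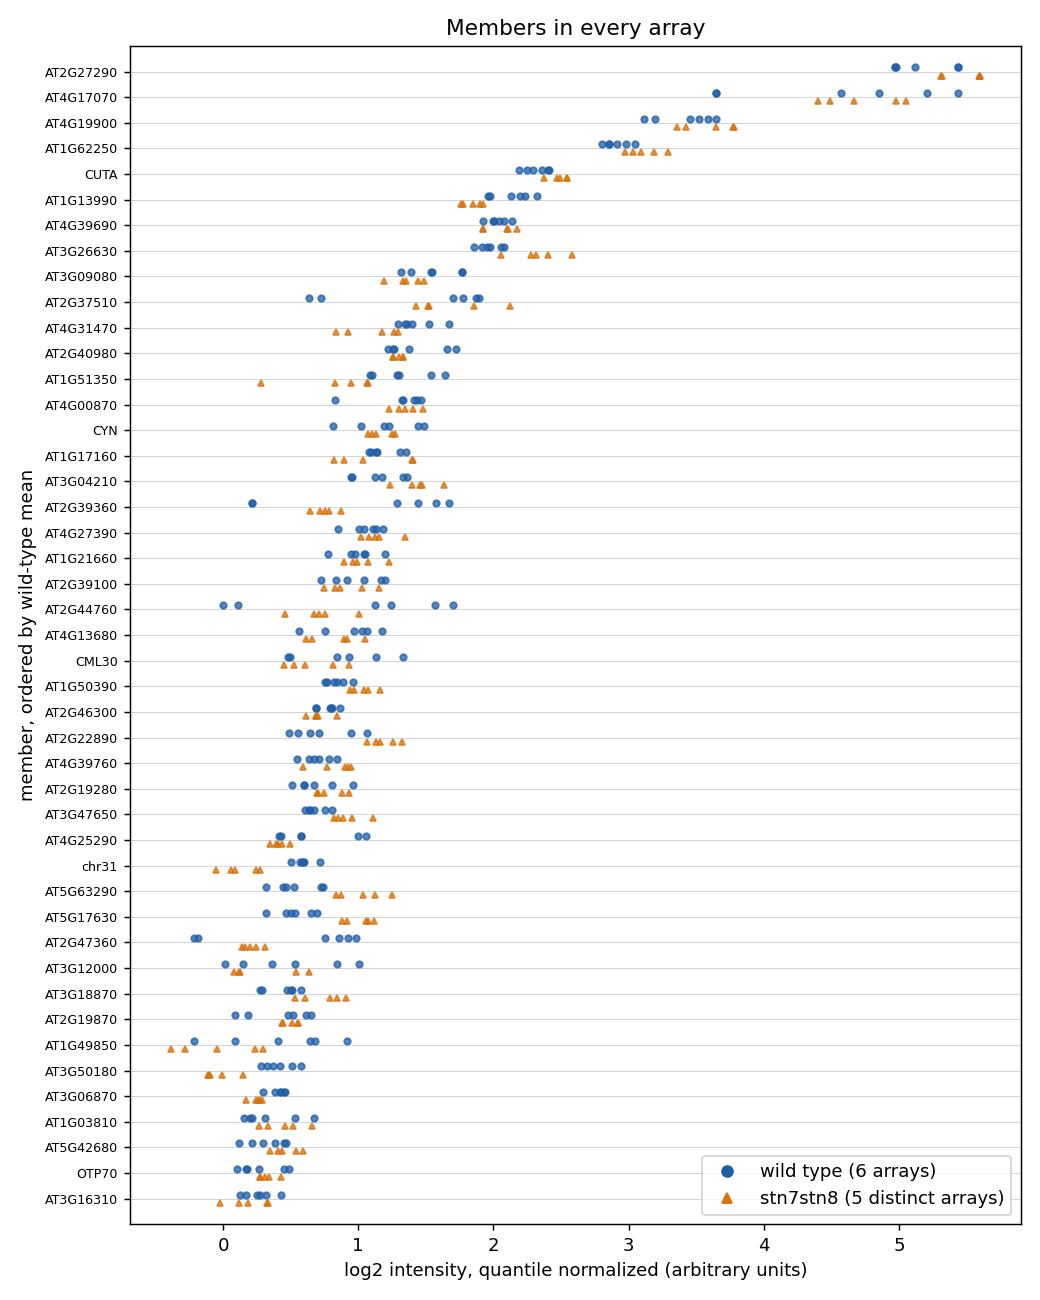
Normalized log2 intensity (horizontal, arbitrary units) of the 45 members in each of 6 wild-type arrays (circles) and 5 distinct stn7stn8 arrays (triangles), ordered by wild-type mean from 5.15 for AT2G27290 to 0.26 for AT3G16310. The groups do not overlap in 10 members, beside 29.3% of the 3145 rows of the array with 11 values. AT4G17070, AT2G37510, AT2G39360, AT2G44760 and AT2G47360 show 2 wild-type points far below the others.

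Below these few rows the members crowded together. Only 7 had a wild-type mean above 2 on the log2 scale and 19 were above 1, while the median was 0.92 and the lowest 0.26. The median over the 488 bright rows was 1.03. The median percentile of brightness among all rows was 91.9 by the wild-type means and 91.6 by the mutant means, where 41 members were also in the top 15%. The exceptions were chr31, AT1G49850, AT3G50180 and AT3G16310, and AT1G49850 was lowest at the 81.6 percentile. In 32 members the row was in the brightest 15% of each of the 11 arrays by itself. The 45 rows together took 4.87% ± 0.25 (SD, n = 6) of the summed deposited intensity of wild-type arrays. For mutant arrays the share was 4.51% ± 0.21 (SD, n = 5). The ranges of 4.55% to 5.18% and 4.29% to 4.78% overlapped.

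The order of the members was not equally kept by all arrays. Across the 45 members, Spearman's rho was 0.959 to 0.979 within the 3 wild-type pairs of consecutive number, 1 and 2, 3 and 4, and 5 and 6. It was 0.910 to 0.940 between replicates 1 or 2 and 3 or 4, and 0.586 to 0.765 between replicates 5 or 6 and the other wild-type arrays. Among mutant arrays it was 0.896 to 0.976, and between wild type and mutant 0.695 to 0.879. These are correlations across genes, which are not independent replicates, and the arrays share the same probes.

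By these correlations wild-type replicates 5 and 6 stood apart from replicates 1 to 4. In 28 of 45 members both lay outside the range of the other 4, in 17 above it and in 11 below it. Over all 3204 rows with 6 wild-type values this held for 51.9%, with 28.8% above and 23.1% below, and among the 488 bright rows for 60.5%. The members' share of 62.2% was close to that of the bright rows. Arrays of consecutive number differed by a median of 0.084 on the log2 scale over the members, while the pair means differed by 0.22. The source of this split was not tested.

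The split was widest in 5 members with a wild-type SD above 0.5. Such an SD was found in 32 of the 488 bright rows and in 387 of all 3250 rows. The 5 members were AT4G17070, AT2G37510, AT2G39360, AT2G44760 and AT2G47360, and in each of them replicates 5 and 6 were the low arrays. AT2G39360, a receptor-like kinase of the CrRLK1L family, gave 1.67, 1.57, 1.45 and 1.29 in wild-type replicates 1 to 4, and 0.21 in both others. The mutant values, at 0.88, 0.72, 0.78, 0.75 and 0.64, lay in the gap between them. AT2G44760, without a role here, gave 1.70, 1.57, 1.24 and 1.12 and then 0.11 and 0.003, with mutant values of 0.71, 0.75, 0.46, 1.01 and 0.67. AT2G47360 gave 0.98, 0.86, 0.76 and 0.93 and then -0.19 and -0.22, with mutant values from 0.14 to 0.31. In AT2G39360, AT2G44760 and AT2G47360 every mutant array lay between the low and the high wild-type arrays.

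The opposite held for the S-locus related AT3G12000, the calmodulin-like CML30 and AT4G25290 of the DNA photolyase family. Replicates 5 and 6 of wild type averaged 0.66, 0.54 and 0.53 above replicates 1 to 4 on the log2 scale. AT3G12000 gave 0.84 and 1.01 in those arrays and 0.013 to 0.53 in the other wild-type arrays. CML30 gave 1.13 and 1.33 against 0.48 to 0.93, and AT4G25290 gave 1.06 and 1.0 against 0.42 to 0.58. The mutant values of AT4G25290, from 0.35 to 0.49, were below both of these replicates.

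**Figure D3:**
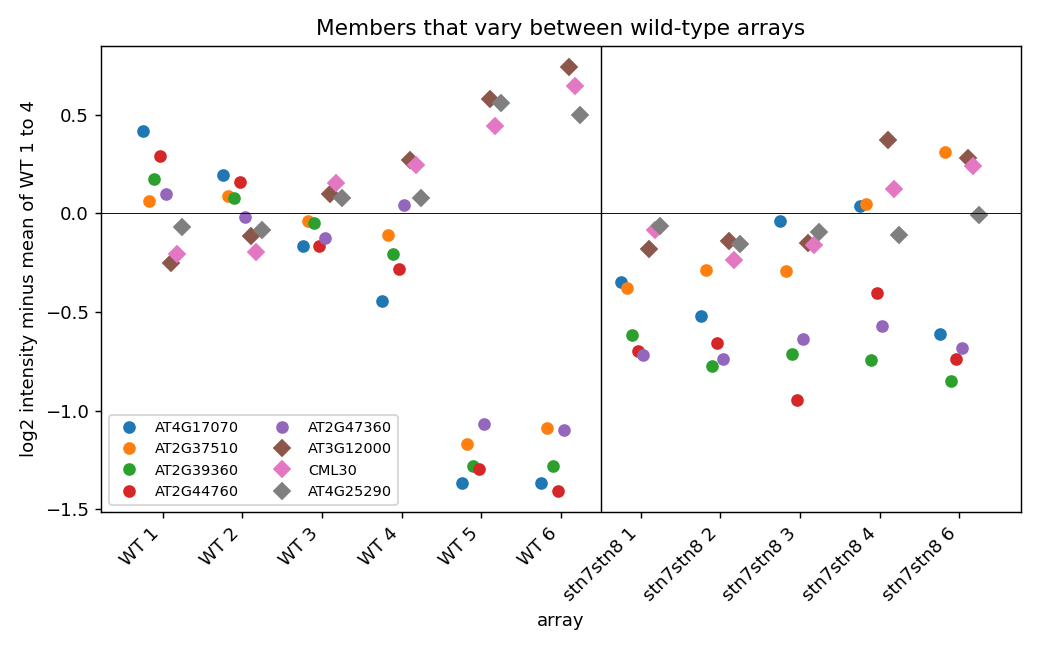
Log2 intensity in each array minus the mean of wild-type replicates 1 to 4, for the 5 members with a wild-type SD above 0.5 (circles) and the 3 with the largest shift upwards in replicates 5 and 6 (diamonds). The mean of replicates 5 and 6 lies between -1.37 and -1.08 for the first and between 0.53 and 0.66 for the second.

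At the other end, the smallest wild-type SD was that of AT3G06870, without a role here, at 0.060. Its wild-type values ran from 0.30 to 0.46 with a median of 0.42, and the mutant values of 0.17, 0.26, 0.29, 0.27 and 0.24 were all below them. It was followed by chr31, with an SD of 0.070, and by AT2G46300, of a family of hydroxyproline-rich LEA proteins, with 0.071. AT2G46300 gave 0.69 to 0.87 in wild type with a median of 0.795, and 0.70, 0.69, 0.84, 0.61 and 0.69 in the mutant. The median SD of the 45 was 0.17 in wild type and 0.13 in the mutant, beside 0.19 and 0.15 over the 488 bright rows. In 30 members the mutant SD was the smaller, beside 302 of the 488 bright rows and 1556 of all 3250 rows.

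Setting stn7stn8 against WT addresses how transcript levels differ without both kinases, and the members were picked for differing little in it. After quantile normalization 24 differences were above 0 and 21 below, with a median of 0.030, beside a median of -0.12 over the bright rows and 0.058 over all rows. The difference was under 0.2 on the log2 scale in 24 members and over 0.4 in 7. It was smaller than the wild-type SD in 24 members. limma called 14 members at an adjusted p under 0.05, beside 43.3% of all 3229 tested rows. It called 273 of the 488 bright rows, and 73 of the 252 bright rows in the window that were not members. Of the members, 9 were called higher and 5 lower in the mutant, beside 23.7% and 19.6% of all rows. Without wild-type replicates 5 and 6 it called 12 of the 45, of which 7 were among the 14. Over all rows it called 1481 in that setting, beside 1398 with all distinct arrays. Because the rule used this contrast, nothing is read from these counts. The arrays of both groups did not overlap in 10 members, 4 higher and 6 lower in the mutant, beside 29.3% of the 3145 rows with 11 values.

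The highest differences were those of AT5G63290, AT5G17630 and AT2G22890. AT5G63290 resembles an oxygen-independent coproporphyrinogen oxidase, a radical SAM enzyme of heme synthesis in bacteria. Its wild-type values ran from 0.31 to 0.74 with a median of 0.50, and the mutant values were 0.83, 1.12, 1.25, 0.87 and 1.03. AT5G17630, the translocator of xylulose phosphate across the plastid envelope, gave 0.32 to 0.69 in wild type with a median of 0.52, and 0.88, 0.92, 1.08, 1.12 and 1.06 in the mutant. AT2G22890, a relative of the plastid desaturase FAD4, gave 0.49 to 1.06 with a median of 0.68, and 1.16, 1.07, 1.13, 1.26 and 1.32 in the mutant. In all 3 genes every mutant array was above every wild-type array. For AT2G22890 the gap was narrow, with 1.064 as the highest wild-type value, in replicate 5, and 1.066 as the lowest mutant value.

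The lowest differences were those of AT1G51350, chr31 and AT1G49850. AT1G51350, an armadillo repeat protein, gave 1.09 to 1.64 in wild type with a median of 1.29, and 0.28, 1.06, 0.83, 1.07 and 0.95 in the mutant. Its lowest array was mutant replicate 1. The SNF2-type chromatin remodeller chr31 gave 0.51 to 0.72 in wild type with a median of 0.59, and 0.060, 0.24, 0.090, -0.053 and 0.28 in the mutant. AT1G49850, a RING finger protein of the kind that transfers ubiquitin, gave -0.21 to 0.92 in wild type with a median of 0.53. Its mutant values of 0.30, -0.043, 0.24, -0.28 and -0.39 overlapped the low wild-type replicates 5 and 6, at -0.21 and 0.087. After quantile normalization the groups did not overlap for AT1G51350 and chr31. On the deposited scale those of AT1G51350 overlapped, with mutant replicate 2 at 2.17 and wild-type replicate 2 at 2.11.

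By class, the 6 RNA-binding and organelle gene expression members had differences of 0.051 to 0.36 after quantile normalization, and none of the 6 stayed above 0 with arrays centred on their medians. AT3G18870, of the mTERF family of organelle gene expression factors, had 0.30, and AT2G19280, a pentatricopeptide repeat protein, had 0.10. The SpoU-type RNA methyltransferase AT2G19870 had 0.076, and OTP70, which is needed to splice an intron of chloroplast rpoC1, had 0.051. Their wild-type means were 0.44 ± 0.13, 0.69 ± 0.16, 0.42 ± 0.23 and 0.28 ± 0.16 (log2, SD, n = 6). Without wild-type replicates 5 and 6, the differences of AT2G37510 and AT2G19870 were -0.12 and -0.064, so 4 of 6 stayed above 0.

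Of the 9 metabolism and transport members, 6 differences were above 0 and 3 below. AT1G50390, of the pfkB family of sugar kinases, had 0.20 with a wild-type mean of 0.84 ± 0.078. The related plastid ribokinase AT1G17160 had -0.075, with a mean of 1.19 ± 0.12. CYN, the cyanase that breaks down cyanate, had -0.031 with a mean of 1.2 ± 0.25. The difference of AT4G25290 was -0.26, or -0.083 without wild-type replicates 5 and 6. With arrays centred on their medians, the differences of 2 of the 9 were above 0.

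In protein folding and ubiquitin transfer, AT3G47650 had a difference of 0.24. It is the counterpart of maize BSD2, a zinc finger chaperone that helps to assemble Rubisco. Its wild-type values ran from 0.60 to 0.81 with a median of 0.66. The mutant values, at 0.82, 0.95, 1.11, 0.89 and 0.85, were all above them. AT1G21660, with a DnaJ domain of the kind that works with Hsp70 chaperones, gave 0.78 to 1.2 in wild type with a median of 1.01. In the mutant it gave 1.07, 1.23, 0.99, 0.96 and 0.89, and the groups overlapped. AT4G39760, of the kelch F-box family, had a difference of 0.13, and the RING finger protein AT2G39100 had -0.058.

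Of 6 signalling and defence members, 5 differences were below 0, and 3 of the 6 were above 0 without wild-type replicates 5 and 6. AT4G31470, a secreted protein of the family of pathogenesis-related PR1, gave 1.29 to 1.67 in wild type with a median of 1.38. The mutant values were 1.26, 1.29, 1.18, 0.92 and 0.84. All were below the wild-type values, but narrowly, with 1.292 as the highest mutant value and 1.295 as the lowest wild-type value, in replicate 4. AT2G40980, of a protein kinase family, gave 1.22 to 1.72 with a median of 1.32, and its mutant arrays of 1.3, 1.26, 1.33, 1.33 and 1.26 lay within that range. AT3G04210, a TIR-NBS protein of disease resistance, was the member with a difference above 0, at 0.29. The difference of AT2G39360 was -0.31 and that of AT3G12000 was -0.18.

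Among the nuclear members, the bHLH transcription factor AT4G00870 gave 0.83 to 1.47 in wild type with a median of 1.37, and 1.23, 1.3, 1.35, 1.4 and 1.48 in the mutant. The OB-fold protein AT1G03810 and the NUP35-type nucleoporin AT3G16310 were near the brightness threshold, at 0.35 ± 0.21 and 0.26 ± 0.11 in wild type. Their differences were 0.10 and -0.072. Of the 10 members without a role, AT3G50180 had a difference of -0.45, with all mutant arrays, from -0.11 to 0.15, below the wild-type range of 0.28 to 0.58. AT4G27390, AT4G13680 and AT5G42680 had differences of 0.091, -0.098 and 0.14, with overlapping groups.

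The size and the sign of these differences depended on how the arrays were scaled. Over all rows, the median difference was 0.50 on the deposited values, 0.058 after quantile normalization, 0.021 after cyclic loess and -0.034 with arrays centred on their medians. For the 45 members the same medians were -0.0021, 0.030, 0.018 and -0.54. For the 488 bright rows they were -0.10, -0.12, -0.099 and -0.64. Under each of the 4 scalings the median of the members was below that of all rows and above that of the bright rows. The rule left out 16 bright rows with 1 gene name below the window and 9 above it, so nothing is read from this order. For the other bright rows inside the window the median was -0.043 after quantile normalization. The sign was above 0 under all 4 scalings in 2 members, AT5G63290 and AT5G17630, and below 0 in 18. Centring on array medians alone put 43 members below 0 and 2 above, so these counts do not show more members lower than higher. In 25 it differed between scalings. AT2G27290 had 0.33 after quantile normalization, 0.26 after cyclic loess, -0.24 as deposited and -0.78 with arrays centred on their medians. AT5G63290 had 0.49, 0.51, 0.60 and 0.060 in the same order, and chr31 had -0.47, -0.46, -0.30 and -0.83. Overlap of the groups depended on the scaling too. Of the members apart after quantile normalization, AT1G51350, AT4G31470, AT3G06870 and AT3G50180 overlapped on the deposited values. AT1G13990, chr31, AT5G63290, AT5G17630, AT2G22890 and AT3G47650 stayed apart there. The rank of a row within its own array is the same under the deposited, median-centred and quantile scales.

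**Figure D4:**
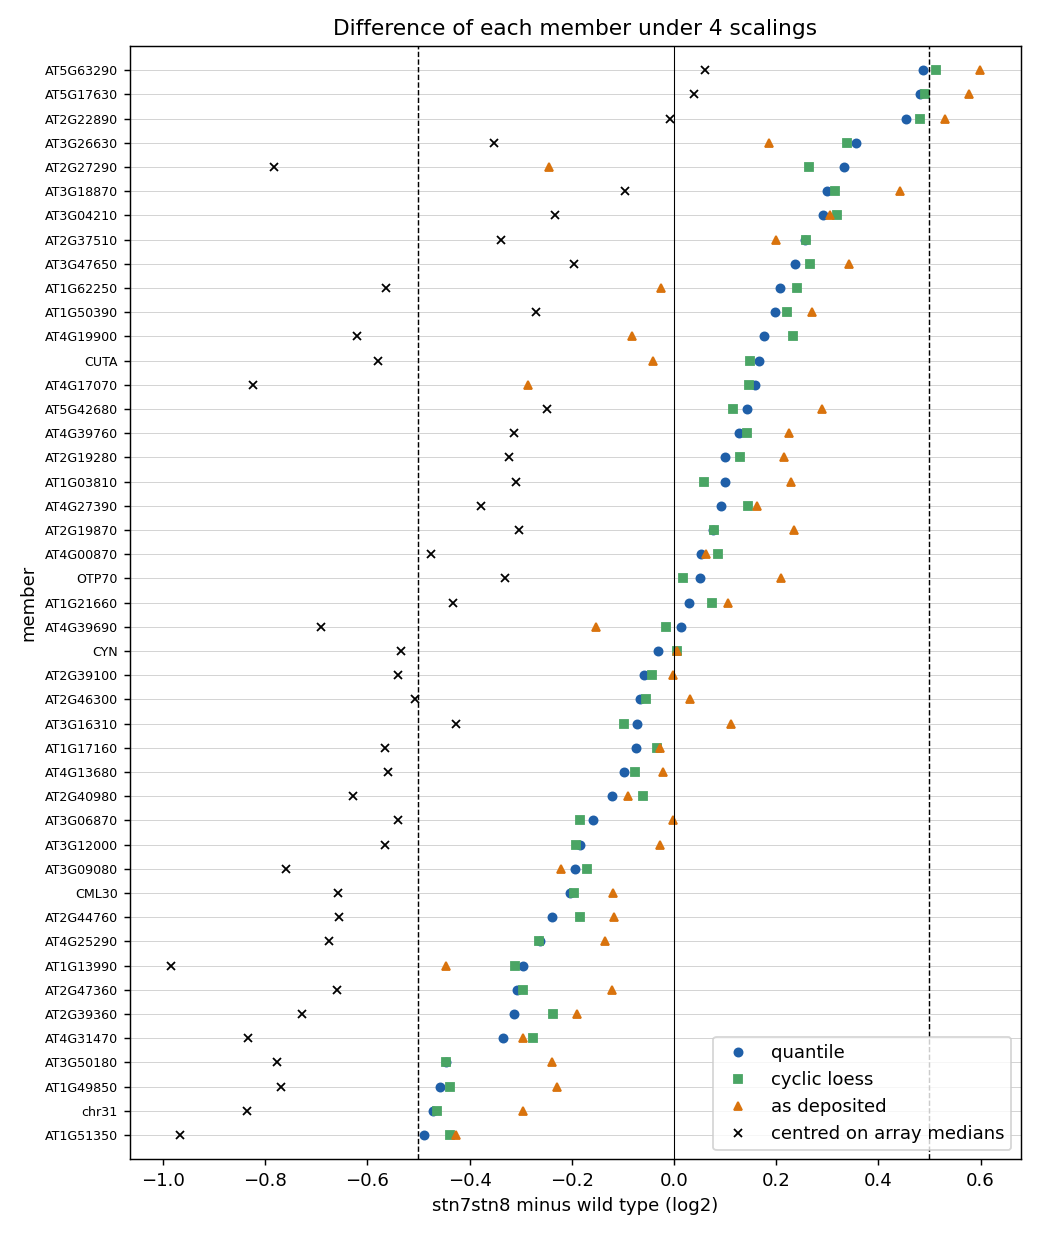
Mutant minus wild type on the log2 scale for each member under quantile normalization, cyclic loess, the deposited values and arrays centred on their medians. Dashed lines mark the window from -0.5 to 0.5. With arrays centred on their medians 19 members lie inside the window and 43 lie below 0.

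Leaving out wild-type replicates 5 and 6 and normalizing the other 9 arrays again kept 37 of the 45 members. The 6 members that left the window were AT2G39360 at -0.72, AT1G49850 at -0.67, AT2G44760 at -0.67, AT2G47360 at -0.65, AT2G22890 at 0.58 and AT5G17630 at 0.54. AT1G03810 and OTP70 were below the brightness threshold, which was then 0.26. The sign of the difference turned in 8 members, among them AT4G17070 from 0.16 to -0.28, AT2G37510 from 0.26 to -0.12 and CYN from -0.031 to 0.099. The difference of AT2G27290 was 0.27 without these arrays, and that of AT1G13990 was -0.22.

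The thresholds of the rule cut through a continuous range. By brightness, AT3G16310 was the last row taken, at 0.26, and AT4G16410, at 0.21 with a difference of 0.38, was the first with 1 gene name to be left out. At the upper edge of the window AT5G63290 was inside at 0.49 and AT2G26110 outside at 0.68. At the lower edge AT1G51350 was inside at -0.49. The Calvin cycle enzyme phosphoribulokinase, PRK, was outside at -0.52. The window held 66.6% of all 3250 rows and 60.9% of the bright rows.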

How the data were processed

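The deposited table holds intensities on a linear scale, never negative. The sources used here do not state how the authors scaled them, whether background was subtracted or which array was used. Zeros were set to missing, log2 taken and quantile normalization applied over the 11 distinct arrays (limma 3.58.1, R 4.3.3). Members were selected by rule from brightness and difference; the members, classes and lists were chosen with earlier results of these data known. Gene names came from the array annotation, of whose 692 rows with 1 gene 690 matched the TAIR10.1 gene table. limma (lmFit, eBayes, Benjamini-Hochberg) was fitted over 3229 rows with 4 or more values per group as background, and was tested on simulated data. The simulated arrays varied independently of each other, so that test did not cover the likeness of consecutive wild-type arrays. No p-value is given for a member. Named with values are the 10 brightest members, the 3 with extreme differences and SDs at each end, those at the thresholds and the brightest 2 per class; others were named to complete a class or a count. The number of arrays limits the precision. Sequence features were planned but are not analysed here. Alternatives changed the scaling, zeros, thresholds, duplicates and arrays used.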

Additional observations from a re-analysis of the deposited data

Results flagged for a closer look

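Dixon's test was applied to each of the 45 genes in wild type and in the mutant, 90 groups of values in all. It singled out 1 array, and chance singles out about 1 group in 20. For the bHLH transcription factor AT4G00870, wild-type replicate 2 stood at 0.83 on the normalized log2 scale. Its other wild-type values ranged from 1.32 to 1.47.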

How the results depend on the processing

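The number of genes chosen, 45 as reported, was 25 with arrays centred on their medians, of which 19 were shared, and 69 with the top 20% of rows. The median wild-type log2 intensity, 0.92 as reported, was 2.19 with median centring, 1.12 with the median intensity added before log2, 1.19 with the top 10%, 0.52 with the top 20%, 1.0 with medians over wild-type arrays and 0.98 without stn7stn8 1 and 2. The median percentile, 91.9 as reported, was in the same order 90.6, 91.5, 93.4, 88.8, 92.3 and 92.3. It was 92.2 with a window of 1 and 91.4 without wild-type replicates 5 and 6, a setting chosen after seeing the data, as were leaving out stn7stn8 1 and 2 and averaging consecutive wild-type arrays. limma called 14 members as reported, 36 of the 45 with median centring, 8 of them among the 14, 5 at an adjusted p under 0.01 and 5 with consecutive wild-type arrays averaged. Over all rows it called 1398 as reported, and 1491, 948 and 1010 in these settings in the same order. On the deposited values it called 2095 rows. The cause of these shifts was not tested.

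Leaving out 1 array at a time gave 42 to 47 genes, a median log2 intensity of 0.84 to 0.97, a median percentile of 91.3 to 92.2, 8 to 13 members called and 1285 to 1385 rows called. The members called were 8 without wild-type replicate 6 and 9 without stn7stn8 replicate 3. With the replicate number as a block, a replicate block, 1425 rows and 13 members were called, 12 of them shared. The deviations of same-numbered arrays correlated at 0.133 to 0.228 in 4 pairs and at 0.0094 for number 4, and 4 of 5 arrays in each group correlated best with their own number. This is a hint of pairing from the data. The labels do not say that a number marks a shared batch, so the samples were not treated as paired. The number of arrays and the unknown scaling limit all values.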
